A study of Mus musculus with 4 samples.

Results

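The regions described here are Zeb1 ChIP-seq peaks whose centre lay just upstream of a transcription start site (TSS) in mouse embryonic stem cells. They were chosen only by position: the deposited peak list gives the distance from each peak centre to the TSS of its assigned gene, and every peak with a distance from −500 to −1 bp was taken. This gave 1954 of 17435 peaks (11.2%), assigned to 1948 genes, and all 1954 carry the promoter annotation of the list. The legend of the list calls positive distances upstream. The reference annotation shows the opposite, because peaks with negative distances lie 5′ of the start of the named transcript, and negative is therefore read as upstream throughout.

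The list rests on 3 Zeb1 ChIP libraries and 1 input library from the D3 line of mouse embryonic stem cells, an established line, at passages 5 to 8. All 4 libraries came from feeder-free cultures in ground state (GS) medium, an N2B27 medium with 1 μM PD0325901 (a MEK inhibitor), 3 μM CHIR99021 (a GSK-3 inhibitor) and 20 ng/mL LIF. Chromatin was fixed with 1% formaldehyde, sheared to about 200 bp, precipitated with 8 μg of an anti-Zeb1 antibody (no antibody for the input) and sequenced on the Ion Torrent platform. The labels do not say whether the 3 ChIP libraries came from separate cultures, and the list holds only the authors' means, so no spread between libraries can be given. What each mean was taken over is not certain: the smallest number that turns the mean reads of a peak into whole numbers (within 0.0005 reads) was above 3, the number of ChIP libraries, in 1382 upstream peaks (70.7%) and was 7 in 914 of them. Read numbers are therefore given as deposited, and are not reads of any library.

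Zeb1 is a zinc finger and homeodomain protein that binds E-boxes, short palindrome-like DNA elements, and recruits corepressors with histone deacetylase activity. It is best known for silencing epithelial genes during the epithelial-to-mesenchymal transition (EMT). The DNA just upstream of a TSS is the core and proximal promoter, which in mammals is often rich in G+C and CpG and may serve a pair of genes transcribed in opposite directions.

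Promoter sequences of upstream peaks with high enrichment over input are printed first, to show what the DNA under such peaks looks like. All are from build GRCm38.p6, read 5′ to 3′ on the strand of the gene, and lie outside annotated exons. Capitals mark the E-box CACCTG (or its reverse complement CAGGTG), the classic core bound by Zeb1, and the GC box GGGCGG (or CCGCCC), the element bound by Sp1-type factors. The first set holds the 150 bases before the TSS of Gm13238 (chr4:145837069-145837218, plus strand), a pseudogene, of Farp2 (chr1:93511954-93512103, plus), which encodes a guanine nucleotide exchange factor, of LOC100861615 (chr14:6287251-6287400, minus), an alpha takusan-like gene, of Nrip3 (chr7:109781546-109781695, minus), which encodes a nuclear receptor interacting protein, and of Plk2 (chr13:110394894-110395043, plus), which encodes a polo-like kinase.
Gm13238: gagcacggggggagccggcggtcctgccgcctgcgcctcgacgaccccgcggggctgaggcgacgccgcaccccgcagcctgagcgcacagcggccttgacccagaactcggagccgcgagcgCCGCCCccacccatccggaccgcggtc
Farp2: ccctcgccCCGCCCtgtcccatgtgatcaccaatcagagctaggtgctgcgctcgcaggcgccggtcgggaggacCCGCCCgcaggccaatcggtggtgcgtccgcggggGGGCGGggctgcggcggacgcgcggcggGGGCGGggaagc
LOC100861615: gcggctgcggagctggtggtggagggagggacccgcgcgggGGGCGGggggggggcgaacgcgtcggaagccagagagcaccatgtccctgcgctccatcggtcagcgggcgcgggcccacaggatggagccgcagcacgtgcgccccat
Nrip3: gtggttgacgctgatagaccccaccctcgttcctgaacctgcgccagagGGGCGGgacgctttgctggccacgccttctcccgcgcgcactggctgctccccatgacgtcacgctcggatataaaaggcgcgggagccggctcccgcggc
Plk2: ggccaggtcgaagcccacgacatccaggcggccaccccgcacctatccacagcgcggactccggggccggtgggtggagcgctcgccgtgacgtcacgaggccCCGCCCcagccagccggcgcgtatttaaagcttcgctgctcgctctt
None of these 5 stretches holds the E-box core, and each holds at least 1 GC box, with 4 in Farp2. They were picked for enrichment and are not a sample of upstream peaks. In the central 500 bp, a longer window set at the peak centre, 33.2% of upstream peaks held the core. That share is therefore no measure for these stretches of 150 bases.

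A further sequence shows the gap between divergent starts, where a single peak sits on the promoters of both genes. Cetn4, a centrin gene, is transcribed away from Bbs12, a Bardet-Biedl syndrome gene, with 108 bp between the starts, of which 100 bases are shown (chr3:37312447-37312546, minus).
Cetn4: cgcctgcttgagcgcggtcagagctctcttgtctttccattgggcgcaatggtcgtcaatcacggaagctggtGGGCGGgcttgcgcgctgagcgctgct
This stretch holds 1 GC box and no E-box core.

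The last sequence belongs to Wnt3, which encodes a secreted signal of mesendoderm formation. The 200 bases around the peak centre are shown (chr11:103773701-103773900, plus), because bases nearer the start overlap an annotated exon of another gene.
Wnt3: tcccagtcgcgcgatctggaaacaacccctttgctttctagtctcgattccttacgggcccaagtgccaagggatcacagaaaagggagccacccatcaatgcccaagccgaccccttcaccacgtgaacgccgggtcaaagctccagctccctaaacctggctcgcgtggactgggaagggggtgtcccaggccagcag
This stretch holds neither an E-box core nor a GC box. Matches and their absence describe these windows only.

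Upstream peaks were broad regions of at least 1150 bp, so with a centre chosen within 500 bp of the listed TSS each had to reach past it on both sides. These extents therefore describe the chosen peaks and are no finding about binding. The median peak reached 1104.5 bp upstream of the start (quartiles 907 and 1400 bp) and 885 bp downstream of it (746 and 1085.75 bp). By the reference start of the same transcript, present for 1929 peaks, 1922 covered the TSS and 7 did not. Their centres were crowded toward the start: the median distance was −107 bp, with 934 peaks at −100 to −1 bp, 487 at −200 to −101 bp, 291 at −300 to −201 bp, 159 at −400 to −301 bp and 83 at −500 to −401 bp.

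**Figure D1:**
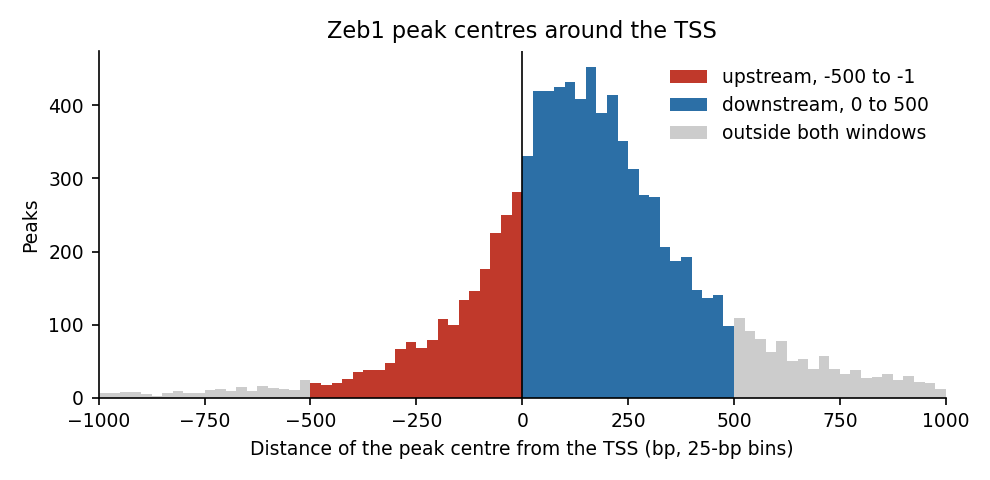
Number of Zeb1 peaks (y axis) by distance of the peak centre from the TSS (x axis, bp, in 25-bp bins), with upstream peaks in red, downstream peaks in blue and others in grey. The 1954 upstream peaks rise toward the start and join without a gap to the 6019 downstream peaks.

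The distance given in the list depends on the transcript model used. For 1534 of the 1929 matched upstream peaks (79.5%) it was within 2 bp of the distance to the reference start of the same transcript. By the reference start, 1780 of the peaks lay in the same window, 147 at or downstream of the start and 2 more than 500 bp upstream, and 25 had a transcript that was not matched. Among genes named here, the peaks of Fbrs and Tbx4 lie 6192 and 3308 bp downstream of the reference start of their transcript, that of Mrpl20 lies 672 bp, that of Pim1 240 bp and that of Ptma 68 bp downstream of it, and the transcript of Tmem132e was not matched. Tbx4, a T-box factor of hindlimb and allantois, has another peak that the list places at −3813 bp and the reference at −117 bp, with an enrichment of 10.2.

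Enrichment over input in upstream peaks ranged from 2.3 to 30.4, with a median of 6.73 and quartiles of 5.4 and 8.51. Mean ChIP reads per peak ranged from 20.5 to 340.7 (median 54) and input reads from 3 to 64.9 (median 17.2). Enrichment is the authors' ratio after scaling for mapped reads, so it is larger than the plain quotient of these read numbers. Peak length ran from 1150 to 10650 bp, with a median of 2000 bp.

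The highest enrichments stood on few input reads. Gm13238 had an enrichment of 30.4 from 42 ChIP and 3 input reads. Svip, which encodes a small inhibitor of VCP-dependent protein degradation, had 24.9 from 38 and 3 reads. Dap3, a mitochondrial ribosome protein with a role in apoptosis, had 20.8 from 69.3 and 7.29 reads. Tpp2, a large cytosolic peptidase, also had 20.8, from 63.6 and 6.4 reads. Further high values were those of Khdrbs2, an RNA-binding protein of neurons, at 18.9, Farp2 at 18.7, LOC100861615 at 17.3, Nrip3 at 17.2, Cetn4 at 17, Fbrs at 16.4 and Plk2 at 16.1. Of the peaks just named, only that of Svip held a Zeb1 motif in its central 500 bp, against 28.0% of all upstream peaks. The named peaks are too few to set their share apart from this. At the low end were Carns1 (2.3), the carnosine synthase gene, Car5a (2.35), a mitochondrial carbonic anhydrase gene, Gars (2.5), the glycyl-tRNA synthetase gene, Rufy4 (2.6) and Hsd11b2 (2.69), which encodes the enzyme that inactivates corticosterone.

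Peaks with the most ChIP reads were a different set, and they were long. Ptma, the abundant chromatin-associated protein prothymosin alpha, had 340.7 reads over 4850 bp. Gata2, a haematopoietic transcription factor, had 258.4 reads over 5600 bp, and Tle3, a Groucho-type corepressor, had 216.2 over 6300 bp. Ankrd10 had 209 reads and Hmga1, an architectural chromatin protein, had 202.7. The longest upstream peaks were those of Skor1, a SKI-type corepressor of neurons (10650 bp), the microRNA gene Mir6922 (10350 bp), Plec, the cytolinker plectin (7950 bp), Hsf4, a heat shock factor of the lens (7750 bp), and Mir3062 (7200 bp). Across the 1954 peaks, which share the same libraries, the Spearman rank correlation was 0.659 between length and ChIP reads, 0.573 between ChIP and input reads, and 0.186 between length and enrichment.

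Within the window, position went with length and base composition more than with enrichment. From the outermost to the innermost 100 bp, median length fell through 2700, 2500, 2250, 2000 and 1850 bp, and median G+C of the central 500 bp rose through 60, 61.8, 64.4, 65 and 66.6%. Median enrichment over the same bins was 7.1, 6.59, 6.8, 6.67 and 6.71, with no steady course. ChIP reads per kb had medians of 23.7, 24, 26.4, 26.7 and 27.9. Over all 1954 peaks the rank correlation with distance was −0.384 for length, 0.205 for G+C, 0.135 for ChIP reads per kb and −0.0284 for enrichment.

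Peaks at the edges of the window had varied values. Just inside the outer edge lay Tmem132e (−500 bp, enrichment 10.3), Jarid2 (−499 bp, 11.0), a Polycomb cofactor, and Eaf2 (−499 bp, 4.36), an elongation factor partner. Just outside it lay Fam222a, 1 bp beyond the edge (5.07), and Papola at −502 bp (5.46), the poly(A) polymerase gene. The 7 peaks in the outer 10 bp of the window had a median enrichment of 4.57 and the 10 peaks in the next 10 bp outside it 5.68. At −1 bp there were 15 peaks with a median enrichment of 5.4, from 3.45 at Wdr61 to 10.6 at Ankra2. The 20 peaks centred on the TSS had a median of 6.84.

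To see where upstream peaks differ from their neighbours, they were compared with the 6019 downstream peaks (0 to 500 bp) and the 718 upstream flank peaks (those further out, as far as −5000 bp). Each measure was split at its median over all 17435 peaks, and the shares above it were compared by a two-sided Fisher's exact test, with a 95% Newcombe interval for the difference and Benjamini-Hochberg adjustment over 20 tests. Peaks are features of 1 list and not replicates, so these p-values describe the list and not the variation between cultures.

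Upstream peaks were longer than downstream peaks, and a difference in enrichment did not pass the test. Median lengths were 2000 and 1800 bp, and 59.4% against 43.0% exceeded 1850 bp, a difference of 16.4 percentage points (13.9 to 18.9; Fisher's exact test, adjusted p = 1.07e-35). Median enrichments were 6.73 and 6.66. Shares above 6.5 were 53.6% and 52.5%, and the difference of 1.10 points (−1.45 to 3.64) did not pass the exact test (adjusted p = 0.425). With 250-bp windows it was 3.01 points, near the threshold (exact test, adjusted p = 0.0526), and with 1000-bp windows it was −0.188 points. Both kinds of reads were thinner along the upstream peaks, with the doubt about the means given above. ChIP reads per kb exceeded 25.1 in 60.0% against 65.3%, a difference of −5.36 points (−7.86 to −2.90; exact test, adjusted p = 4.08e-05), and input reads per kb exceeded 8.07 in 1074 upstream peaks and in 60.5% of downstream peaks, a difference of −5.58 points (−8.11 to −3.06; exact test, adjusted p = 3.1e-05). The ChIP difference shrank to −3.47 points with 250-bp windows and to −2.73 points with the limit at the upper quartile, and in peaks whose reads are whole numbers over 7, an alternative added after seeing the data, it was −2.97 points and did not pass (exact test, adjusted p = 0.113). Upstream peaks with a divisor over 7 were long and thin (33 peaks, median 4450 bp and 23.1 ChIP reads per kb), and without such peaks on either side the difference was −4.91 points. It was larger in peaks with a divisor of at most 3 (−7.59 points; exact test, adjusted p = 0.00265) and with upstream peaks whose centre lay downstream of no start within 500 bp (−7.40 points).

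Base composition also differed between the sides of the TSS. Median G+C of the central 500 bp was 65.4% upstream and 68.4% downstream. In 64.4% of upstream and 81.6% of downstream peaks it exceeded 62.8%, a difference of −17.3 points (−19.6 to −14.9; exact test, adjusted p = 1.42e-51). Measured over whole peaks, the difference was −3.12 points. The choice by position centres these 500-bp windows on opposite sides of the TSS, and its part in the difference was not tested. A central G+C of at least 55% together with a CpG ratio (observed over expected) of at least 0.65, as in a CpG island, was found in 1479 upstream peaks (75.7%), in 85.1% of downstream peaks and in 49.7% of all peaks.

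Against the upstream flank the picture was different: peaks near the start were denser in reads and richer in G+C. ChIP reads per kb exceeded the limit in 60.0% against 37.2%, a difference of 22.8 points (18.6 to 26.9; exact test, adjusted p = 4.04e-25), with medians of 27.0 and 22.6. Input reads per kb also differed, by 17.4 points (1074 peaks above the limit, against 37.6% of flank peaks, 13.1 to 21.5; exact test, adjusted p = 5.24e-15). In peaks with a divisor of at most 3, an alternative added after seeing the data, the input difference was 9.43 points (exact test, adjusted p = 0.0131) and the ChIP difference 18.8 points, and with a divisor of 7 they were 21.0 and 16.1 points. G+C was above its limit in 64.4% against 33.0%, a difference of 31.4 points (27.2 to 35.3; exact test, adjusted p = 1.38e-46), and 32.6% of flank peaks met the CpG island criteria. Enrichment did not pass (53.6% against 50.3%, 3.30 points, −0.963 to 7.57; exact test, adjusted p = 0.162), nor did length (59.4% against 63.6%, −4.28 points, −8.36 to −0.102; exact test, adjusted p = 0.0559). The length difference did pass with the reference distance (−4.99 points), at an enrichment of at least 5 (−7.36) and with 1 peak per gene (−4.72). Input density was thus higher together with ChIP density, and its part in the ChIP difference was not tested.

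**Figure D2:**
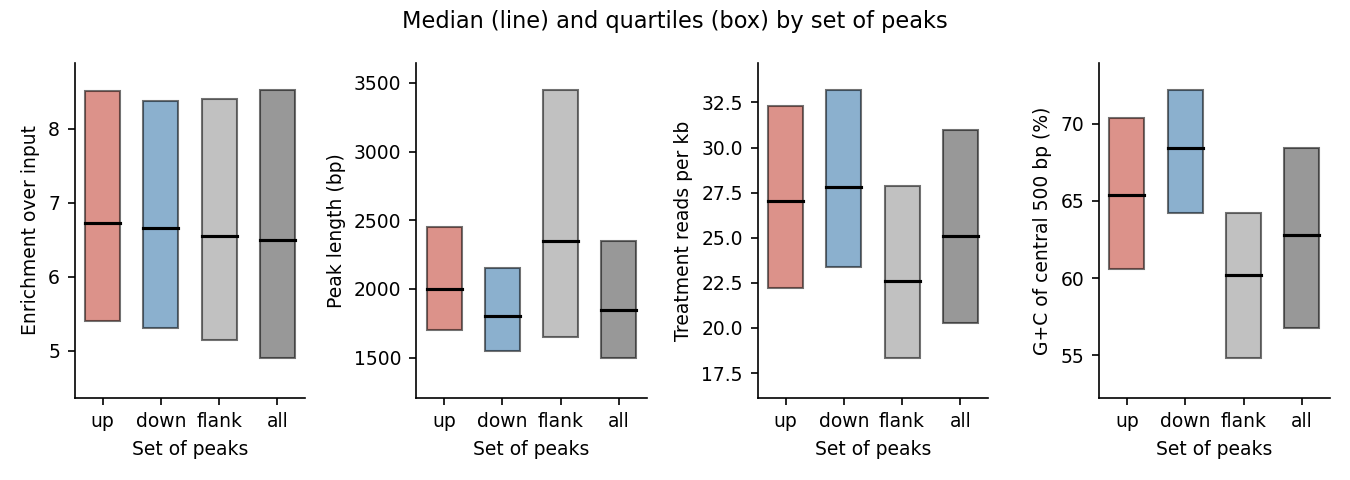
Quartiles (boxes) and medians (lines) of enrichment over input, peak length (bp), ChIP reads per kb and G+C of the central 500 bp (%) for upstream, downstream, upstream flank and all peaks on the x axes; the y axes do not start at 0. Medians of enrichment lie between 6.5 and 6.73, whereas those of G+C run from 60.2% in the flank to 68.4% downstream.

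Some upstream peaks lay on divergent promoters. A gene on the other strand started within 1 kb upstream of the TSS in 308 upstream peaks (15.8%) and in 634 downstream peaks (10.5%), a difference of 5.23 points (3.49 to 7.07; Fisher's exact test, adjusted p = 4.08e-09). In flank peaks the share was 1.95%, and assignment to the nearest gene leaves few such peaks by construction, since a centre more than 500 bp upstream of a TSS is nearer to a divergent start within 1 kb. No test of this share is given. The 25 unmatched upstream peaks were counted as having none. Of 31603 curated starts in the reference, 3474 (11.0%) have one. A centre between divergent starts is upstream of both, so the choice by position favours this arrangement, and its part in the difference was not tested. With starts within 0.5 kb the difference from downstream peaks was 2.41 points.

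The starts were near each other by the limit of 1 kb, and peaks of this length nearly always span such a gap. The median gap between the starts was 238.5 bp (quartiles 125.5 and 431.25 bp, range 1 to 993 bp), the centre lay between both starts in 269 of the 308 peaks (87.3%), as assignment to the nearer start favours, and the peak covered both starts in 306 (99.4%). The partner was a coding gene in 232 cases and noncoding in 76. In 42 cases the partner was also the assigned gene of another peak. The share with a divergent gene was 20.1% at −100 to −1 bp and 13.6, 11.0, 8.81 and 9.64% in the bins further out, a course on which assignment to the nearer gene also bears. On the other side it was 14.7% at 0 to 99 bp and 6.08% at 400 to 500 bp.

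**Figure D3:**
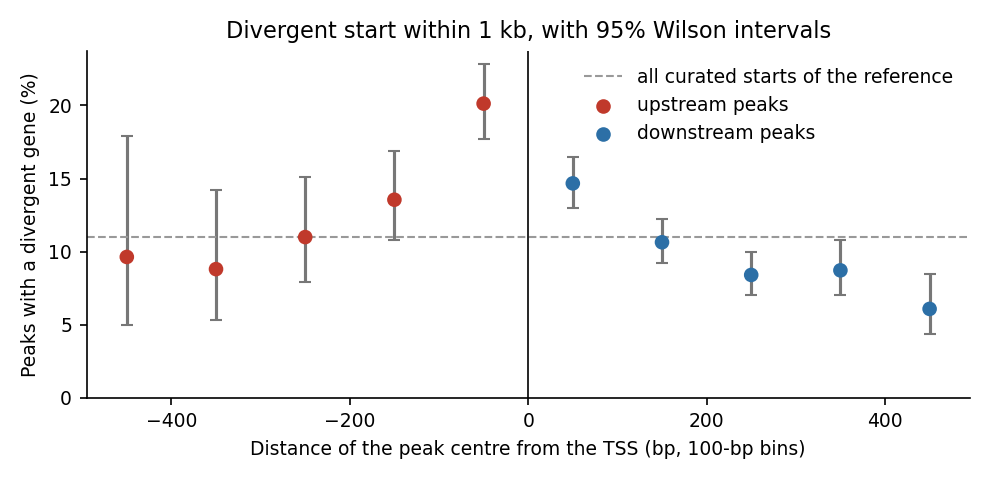
Share of peaks with a divergent gene within 1 kb (y axis, %, with 95% Wilson intervals) by distance of the peak centre from the TSS (x axis, bp, 100-bp bins); the dashed line marks all curated starts (11.0%). The highest share, 20.1%, is in the bin just upstream of the start.

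After these counts had been seen, the 308 peaks on divergent promoters were set against the other 1621 matched upstream peaks, and they held more ChIP reads per kb. Median ChIP reads per kb were 29.6 and 26.3, and the limit was exceeded in 76.6% against 56.7%, a difference of 19.9 points (14.4 to 24.9; Fisher's exact test, adjusted p = 5.62e-11). Median enrichment was 7.19 and 6.65, with 61.0% against 52.0% above the limit, a difference of 9.03 points (2.98 to 14.8; exact test, adjusted p = 0.00631). Input reads per kb differed by 4.48 points (58.8% against 54.3%, −1.59 to 10.4), which did not pass the exact test (adjusted p = 0.168). At an enrichment of at least 5 that difference was 7.85 points and passed (exact test, adjusted p = 0.0275), so input was not level between the groups there. In peaks with a divisor of 7 the input difference was 0.280 points and did not pass. G+C was above its limit in 70.5% against 63.5%, a difference of 6.91 points (1.11 to 12.3; exact test, adjusted p = 0.0325) that shrank to 4.28 points and lost its call at an enrichment of at least 5, and grew to 10.9 points with starts within 0.5 kb. Length differed by 6.25 points (64.6% against 58.4%, 0.268 to 11.9) without passing the exact test (adjusted p = 0.0559). With starts within 0.5 kb the length difference turned to −0.693 points. The Zeb1 motif did not differ detectably, at 27.6% against 28.0%, a difference of −0.41 points (−5.61 to 5.25; exact test, adjusted p = 0.945). The groups also differed in position, with a divergent share of 20.1% at −100 to −1 bp and 9.64% at −500 to −401 bp. Over all upstream peaks, median ChIP reads per kb in those bins were 27.9 and 23.7. The part of position in the differences between the groups was not tested.

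Enrichment on divergent promoters showed little relation to the gap. Its median was 7.38 for the 56 gaps of 1 to 100 bp, 7.06 for 78 gaps of 101 to 200 bp, 7.2 for 106 gaps of 201 to 500 bp and 7.13 for 68 gaps of more than 500 and up to 1000 bp. Among the high values were Cetn4 with Bbs12 (17), whose sequence above holds a GC box between the starts, Baiap2l1, which encodes an actin-regulating protein, with Dmrt1i (15.6, gap 413 bp), and Abca3, the lipid transporter of lung surfactant, with its relative Abca17 (15.3, gap 964 bp).

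A centre upstream of its listed start may still lie downstream of a reference start, in the direction of that transcript, and this was so for a minority of the peaks. Among the 1929 matched peaks, the centre of 1579 (81.9%) was not within 500 bp downstream of any annotated start. In 261 (13.5%; 95% Wilson interval 12.1 to 15.1%) it was downstream of a start of the same gene, which in 127 was the reference start of the listed transcript itself and in 134 was not. In 82 (4.25%) it was downstream of a start of a gene on the other strand and in 7 (0.363%) of another gene on the same strand. Divergent starts that face away from the centre are not counted in these classes.

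The Zeb1 motif (C or T, any base, C or T, then ACCTG, on either strand) was less frequent at the centre of upstream peaks than of downstream peaks. It was present in the central 500 bp of 547 upstream peaks (28.0%), against 33.0% of downstream peaks, a difference of −5.05 points (−7.34 to −2.70; Fisher's exact test, adjusted p = 5.61e-05). Flank peaks had it in 34.7%, a difference of −6.69 points (−10.7 to −2.73; exact test, adjusted p = 0.00164), and all peaks in 34.6%. The bare core CACCTG, which is part of those motif matches that have C before ACCTG and not of those that have T, was present in 33.2% of upstream and 37.1% of downstream peaks. In the central 200 bp the motif was present in 10.0% and 15.7%. Over whole peaks the order turned, with 76.7% upstream and 73.2% downstream. This difference of 3.43 points passed in the other direction (exact test, adjusted p = 0.00448). Upstream peaks were also longer, and the part of length in this was not tested.

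Much of the difference from downstream peaks lay at splice donors. The reverse complement of the motif begins with CAGGT, which is also the common sequence at the exon-intron border, and of 5100 annotated donors checked, 98.4% were followed by GT. Of 670 motif matches in the centres of upstream peaks, 181 (27.0%) lay at an annotated donor, against 42.3% of 2441 matches in downstream peaks and 15.7% of 319 in flank peaks. Without donor matches, an alternative chosen after seeing the data, 20.8% of upstream and 19.9% of downstream peaks held a motif, and the difference of 0.924 points did not pass the exact test (p = 0.423). Flank peaks held one off donors in 29.5% and all peaks in 27.2%.

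Matches were also counted by their position relative to the TSS. In the 1534 upstream peaks with matching distances, the density was lowest just before the start, at 4.50 matches per 100 covering peaks from −100 to −1 bp, of which 3.91 lay off donors. From 100 to 199 bp downstream it was 10.5 per 100, and 93 of those 161 matches lay at donors, which left 4.43 per 100. Downstream peaks had 4.38 and 9.82 in the same bins, and 4.12 off donors in the later one. In the bin between these, from 0 to 99 bp, the density was 8.15 in upstream and 5.76 in downstream peaks (4.76 and 3.15 off donors). At equal distance from the start, upstream peaks held no fewer matches than downstream peaks in these bins, but the order was not the same further out. From −200 to −101 bp the density was 6.78 in upstream and 6.51 in downstream peaks. From −300 to −201 bp it was 6.13 and 6.65. From −400 to −301 bp it was 6.26 and 7.21 (4.95 and 6.75 off donors). Counting all matches, peaks of both kinds held fewest in the 100 bp before the start.

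**Figure D4:**
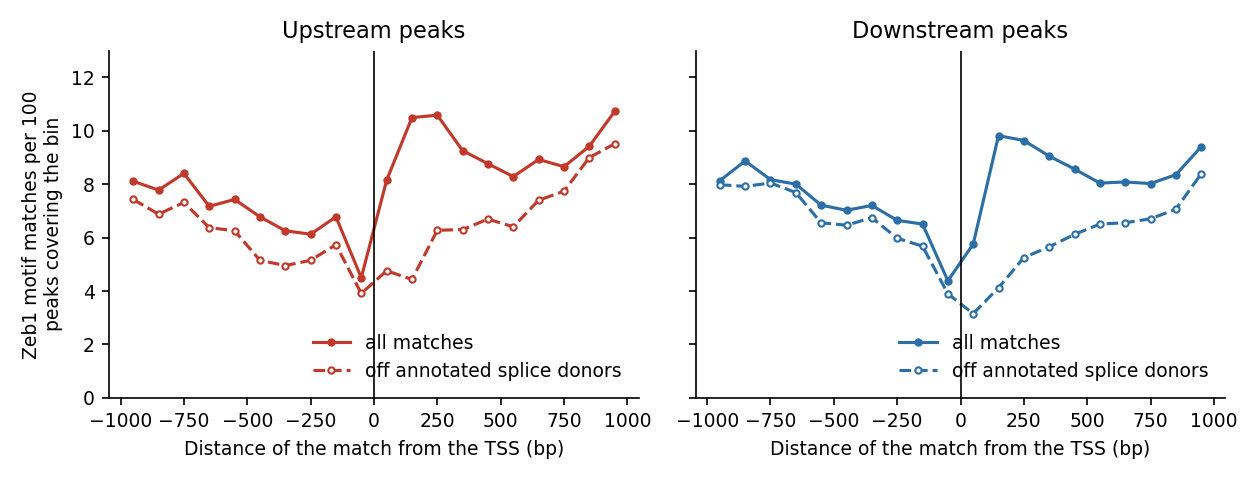
Zeb1 motif matches per 100 peaks that cover the bin (y axis) by distance from the TSS (x axis, bp, 100-bp bins) in upstream (left) and downstream peaks (right); solid lines count all matches and dashed lines those off annotated splice donors. In upstream peaks the density is 4.50 just before the start and 10.5 at 100 to 199 bp, where 4.43 remain without donor matches.

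Before starts with an upstream peak, the GC box was more frequent and the TATA box less frequent than before all curated starts. Matches anywhere in the window were counted, and promoters were not classed by them. In the 500 bp before the TSS, GGGCGG (either strand) was present in 78.6% of the 1929 matched starts, 73.5% of 5965 starts with a downstream peak and 45.2% of all 31603 curated starts. TATAAA, the TATA box, was present in 8.61, 14.9 and 22.5%, in the same order. CCAAT, the box of the factor NF-Y, was present in 44.6, 50.2 and 52.4%, and CCGGAAG, an Ets element, in 18.0, 16.5 and 10.6%. The E-box core CACCTG differed little, at 33.1, 32.8 and 31.7%, as did the Zeb1 motif, which overlaps it in part, at 25.2, 26.0 and 26.9%. Median G+C of these windows was 61.6, 56.4 and 51.6%. Short G+C-rich words occur more often in G+C-rich DNA, and the shares were not adjusted for this.

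Gene by gene, 1945 of 26180 reference genes (7.43%) had an upstream peak, 5967 (22.8%) had a downstream peak, and of the 9958 genes whose TSS had any peak within 5 kb, 19.5% had an upstream one. The groups of genes that follow are given as counts beside these background shares, without a test. Among all genes with an upstream peak the median enrichment was 6.73.

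Genes of the Notch, Wnt and TGF-beta pathways were counted for developmental signalling. Many of them had some peak within 5 kb: 17 Notch, 41 Wnt and 19 BMP and TGF-beta genes. Of these, 41.2, 24.4 and 26.3% had an upstream peak, beside the background of 19.5%. Of 22 Notch pathway genes 7 had an upstream peak and 4 a downstream one, and the median enrichment of the upstream peaks was 8.63. They included Rbpj (13.1), the DNA-binding effector of the pathway, the ligands Dll4 (10.1), Jag1 (8.63) and Dll3 (5.6), the target repressors Hey1 (9.72) and Hes1 (6.38), and Mfng (4), a Notch glycosyltransferase. Of 47 Wnt ligand, receptor and pathway genes 10 had an upstream peak and 11 a downstream one (median 7.96). The ligands Wnt4 (12.9), Wnt6 (11) and Wnt2b (10.7) and the receptor Fzd10 (10.5) led, followed by Wnt7b, Wnt3, Wnt3a, Fzd4 and Fzd6, and Wnt5b (3.46) was lowest. Of 24 BMP and TGF-beta genes 5 had an upstream peak (median 7.96): the ligand Tgfb3 (13.7), the signal transducer Smad3 (9.67), the receptors Bmpr1a (7.96) and Acvr1 (5.15), and the target Id1 (4.34).

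Of 22 mesendoderm genes, 5 had an upstream peak (median 7.8) and 8 a downstream one. A peak within 5 kb was listed for 19 of them, and 26.3% of those had an upstream one, beside the background of 19.5%. T, the mesoderm factor brachyury, had an enrichment of 8.93 at −273 bp. Wnt7b had 8.12 at −129 bp, with 6 other peaks in the list, and Wnt3 had 7.8 at −375 bp, with 2 other peaks at 21400 and 36725 bp. Gata4, a heart and endoderm factor, had 7.29 at −440 bp, and Tbx4 had 6.39 with the doubt about its start given above. Mesp2 and Dll1, which act in somite formation, had their peaks downstream, at 423 bp (4.19) and 348 bp (9.84).

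EMT factors and their epithelial counterparts appeared on both sides. Among those with a peak within 5 kb, 42.9% of 7 EMT factors and 25% of 16 epithelial genes had an upstream one. Of 9 EMT transcription factors 3 had an upstream peak (median 7.1), namely Tcf4 (11.5), Twist1 (7.1) and Snai3 (5.06), and 2 a downstream one. Of 21 epithelial genes, a class that Zeb1 is known to silence, 4 had an upstream and 4 a downstream peak (median 6.27 upstream). The upstream ones were Krt18, a keratin of simple epithelia (6.5), Esrp1, an epithelial splicing factor (6.43), Llgl2, a cell polarity gene (6.11), and Mir200c, a microRNA that targets Zeb1 (5.15). Of 12 Zeb1 corepressor genes 0 had an upstream peak, 9 had a downstream peak and 12 had a peak within 5 kb, too few genes to set the 0 apart from the background shares of 7.43% of all genes and 19.5% of those with a peak within 5 kb.

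Of 15 naive pluripotency genes 0 had an upstream peak, 4 had a downstream peak and 10 had a peak within 5 kb. Of 18 nitric oxide and cGMP genes 0 had an upstream peak, and 6 had a downstream one. Both groups are too small to set a count of 0 apart from the background share of 7.43%. The pathways that the GS medium acts on had a few: 2 of 13 LIF and Stat3 genes, the kinase gene Pim1 (8.84) and the receptor gene Lifr (5), with a median of 6.92, and 3 of 20 FGF and ERK genes (median 6.1), namely Fgf5 (13.5), a ligand of the primed state, Fgf4 (6.1) and the ERK phosphatase gene Dusp6 (5.24). Downstream peaks were present in 6 of the 13 and in 11 of the 20. Of 28 Polycomb genes 4 had an upstream peak and 16 a downstream one, and the upstream peaks included those of Jarid2 (11.0), Ring1 (11.0) and Mtf2 (8.94), with a median of 9.96 over the 4. Of 13 DNA methylation genes 1 had an upstream peak, the dioxygenase gene Tet2 (6.54). Among genes with a peak within 5 kb, an upstream one was listed for 20% of LIF and Stat3 genes and 15% of FGF and ERK genes. For Polycomb genes that share was 17.4%, beside the background of 19.5%.

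Housekeeping groups had their peaks downstream more often than upstream, as reference genes did as a whole. Upstream and downstream peaks were present in 4 and 36 of 85 cytosolic ribosomal protein genes (upstream median 6.43), and in 9 and 27 of 78 mitochondrial ribosomal protein genes (7.75). For 49 respiratory complex I genes the counts were 3 and 19 (4.87), and for 39 proteasome genes 3 and 17 (6.41). RNA polymerase subunit genes had 3 and 6 of 27 (7.4), translation initiation genes 9 and 29 of 57 (5.67), and aminoacyl-tRNA synthetase genes 1 and 16 of 35, the 1 being Gars. Among the mitochondrial ribosome genes Mrpl20 had 14.4 and Mrps5, Mrpl37, Mrpl2, Mrps18b and Mrpl41 lay on divergent promoters.

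Large gene families were also counted. Of 401 Zfp zinc finger genes 37 had an upstream peak and 107 a downstream one (upstream median 5.89). Hox genes, which pattern the body axis, had 3 and 11 of 39, with Hoxc9 (9.06) and Hoxa2 (3.97) among the upstream ones. Replication-dependent histone genes had 6 and 15 of 68 (6.51), and keratin genes 2 and 5 of 54 (6.29). Of 1110 olfactory receptor genes, which are silent outside the nose, 0 had an upstream peak and 2 had a downstream one.

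**Figure D5:**
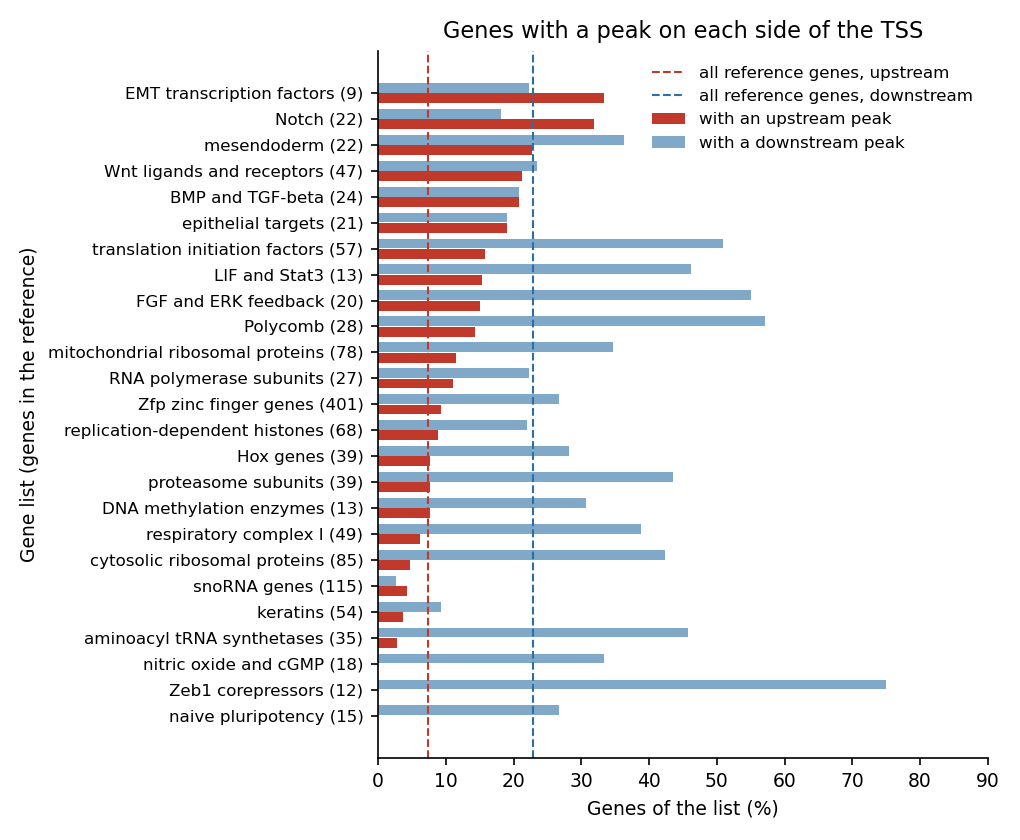
Percent of the genes of each group (x axis) with an upstream peak (red) or a downstream peak (blue), by gene group with the number of reference genes in brackets (y axis). Dashed lines mark all reference genes (7.43% and 22.8%). The olfactory receptor and microRNA groups are not drawn. Notch genes (31.8% upstream, 18.2% downstream) and cytosolic ribosomal protein genes (4.71% and 42.4%) show opposite orders of the bars.

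Small RNA genes were also assigned upstream peaks. The TSS used for them is the first base of the short annotated transcript, not the start of the longer transcript from which it is processed. Of 1180 microRNA genes 30 had an upstream peak and 34 a downstream one (upstream median 6.96). They were led by Mir212 (13.1), Mir8120 (11), Mir3081 (11.0) and Mir34b (10.9), a microRNA induced by p53. Of 115 snoRNA genes 5 had an upstream and 3 a downstream peak (upstream median 6.7), with Snord23 at 14.7. By type of transcript, 1834 upstream peaks (93.9%) belonged to protein-coding genes with a median enrichment of 6.7, 108 (5.53%) to noncoding RNA genes (7.48), 7 to pseudogenes (5.1) and 5 to snoRNA genes (6.7).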

How the data were processed

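ChIP-seq of 3 Zeb1 libraries and 1 input library was analysed from a single deposited peak list. Per the study's methods, the authors trimmed the reads, drew an equal number per library, aligned them to mm10 with STAR 2.4.2a, removed duplicates with Picard 1.136, called broad peaks with PeakRanger against the input, unified those present in at least 2 ChIP libraries and assigned genes with HOMER 4.7. The signal columns deposited by the authors are mean read numbers per peak in ChIP and input, many with divisors above the number of libraries. The enrichment fold is the authors' ratio of ChIP over input after scaling for mapped reads. The deposited p-value column holds 0 for every one of the 17435 peaks, so it entered no test.

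Distances, lengths and reads were taken as deposited, and reads per kb were computed from them. Sequences, exons, splice donors and curated RefSeq starts came from GRCm38.p6. Python 3.11.15, pandas 2.3.3, SciPy 1.17.1, pysam 0.24.0 and matplotlib 3.10.9 were used. Shares were compared with two-sided Fisher's exact tests, Newcombe intervals and Benjamini-Hochberg adjustment over 20 tests, at a level of 0.05 (that of divergent genes against the flank is not reported, since gene assignment largely fixes its outcome), after the scripts had been tested on simulated data. Alternatives were other windows, the reference distance, an enrichment of at least 5, 1 peak per gene, coding transcripts, other motif and G+C windows, other gaps to a divergent start and the upper quartile as limit. Motif matches off splice donors, upstream peaks with a centre downstream of no reference start, peaks of given divisor, and the comparison of divergent promoters with the rest were added after seeing the data.

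Genes were named for the highest and lowest enrichment, the most reads, the greatest length, divergent promoters, the edges of the window and Wnt3, Wnt7b, Tbx4, Mesp2 and Dll1. Others were named from the gene groups, and Nrip3, Fbrs, Plk2 and examples within the large groups were chosen after their values were seen. The upstream peaks and the gene groups were chosen with earlier results of these data known. Some genes and a sequence that these rules would name are not reported here.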

Additional observations from a re-analysis of the deposited data

How the results depend on the processing

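Of 119 alternatives to the 19 comparisons reported with a test, 108 kept their direction and their side of the threshold, and the number of upstream peaks ran from 1568 to 2154 where they were chosen anew, with 914 and 572 in the subsets by divisor. Against downstream peaks, the difference in enrichment turned to −0.188 points with windows of 1000 bp. The difference in motif share turned to 3.43 points over whole peaks, past the threshold, and to 0.924 points without matches at splice donors. The difference in ChIP reads per kb fell below the threshold in peaks with reads in sevenths (−2.97). Against the upstream flank, the difference in length passed the threshold with the reference distance (−4.99 points), with an enrichment of at least 5 (−7.36) and with 1 peak per gene (−4.72). Between divergent and other upstream peaks, an enrichment of at least 5 brought input reads per kb past the threshold (7.85 points) and G+C below it (4.28), and starts within 0.5 kb turned length to −0.693 points and motif share to 0.923 points. The cause was not tested, except that the splice donor alternative itself takes out the matches concerned. The difference in length from downstream peaks ran from 12.7 to 18.2 points, that in G+C from −20.6 to −3.12 and that in divergent genes from 2.41 to 6.14. No paired analysis was possible because the list holds only means, and for the same reason leaving out each replicate in turn could not be run. The read numbers behind the highest enrichments are small, and their spread between libraries is unknown.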

Other observations

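Genes with an upstream peak had further peaks about as often as genes of the list in general. Of the 1948 genes, 540 (27.7%) had a further peak in the list, 846 in all, with 32 genes having a downstream peak too, 52 a flank peak and at most 7 peaks in a gene. At least 2 peaks were listed for 27.8% of these genes and for 26.9% of all 12271 genes in the list. A pair of upstream peaks at different starts was found in 6 genes. Gdnf, a neurotrophic factor gene, had enrichments of 13.4 and 8, Rassf1, a tumour suppressor gene, 6.38 and 8.16, and Adcy7, an adenylate cyclase gene, 5.2 and 7.03. Dab2ip, a Ras GTPase-activating protein gene, had 4.08 and 6.91, Elavl2, a neuronal RNA-binding protein gene, 7.03 and 4.97, and Ssh2, a cofilin phosphatase gene, 5.93 and 3.8.

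By chromosome, upstream peaks made up 13.4% of the 1398 peaks of chromosome 11 (188), 13.1% of 542 on chromosome 19 (71), 8.84% of 1323 on chromosome 8 (117) and 5.09% of 275 on chromosome X (14), and 0 of 32 on chromosome Y. Histone genes gave divergent examples: Hist1h2ae and H2bc8, with 180 bp between the starts and an enrichment of 7.01, Hist1h2ac and H2bc4 (240 bp, 6.6), and Hist1h2ba and H2ac1 (281 bp, 3.25), each joining an H2A and an H2B gene, which encode partners in the nucleosome.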
